A study of Mus musculus with 6 samples.

Results

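The genes described here encode the proteases stored in mast cell granules and the proteoglycan machinery that holds them there. They are 10 of the 54231 genes analysed, taken as the rows of the deposited expression table whose symbol was Cpa3, Cma1, Mcpt1, Mcpt2, Mcpt8, Tpsab1, Tpsb2, Gzmb, Srgn or Ndst2. Each symbol matched 1 row. RNA sequencing had been done on 6 mouse libraries from cultures labelled as female germline stem cells, 3 given the vehicle DMSO and 3 given C89, a compound known here by its code name alone, all at 8 h. The labels name no strain, age, dose or culture line, and do not say that replicates were separate cultures, so the spread between libraries may be technical. The series title poses the treatment as a question about autophagy and PI3K-AKT signalling. C89 libraries 2 and 3 were nearly alike: 0.686% of genes differed between them, while any other 2 libraries of the same treatment differed in 25.8% to 48.7%, so they may be 1 culture or library sequenced again. If so, every C89 mean, SD and n = 3 below rests on 2 replicates, and with these 2 libraries averaged the calls of Cpa3 (log2 fold change 1.49, limma adjusted p = 0.000473) and Ndst2 (-0.54, limma adjusted p = 0.0127) were kept and that of Srgn was lost.

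The labelled identity was compared with marker genes before the granule genes were read. The germ cell marker Dazl had no read in any library, Ddx4 stayed at or below 6.20 normalized counts and Pou5f1 at or below 1.59, while Piwil2 lay between 117 and 176. Ifitm3, the last germ cell marker listed, had 54.7, 74.1 and 1.59 normalized counts in DMSO and 12.2 to 15.9 in C89. Kit, the receptor for stem cell factor, averaged 30384 ± 4542 normalized counts in DMSO and Gata2, a transcription factor of the mast cell and blood progenitor lineages, averaged 16579 ± 1743 (SD, n = 3 each). The mast cell markers Ms4a2 and Mrgprb2 had no read, and Fcer1a had 1.27 normalized counts in a single C89 library. Dazl, Ddx4 and Pou5f1 thus went against the label of germline stem cells, while Piwil2 and Ifitm3 had reads. The mast cell markers were themselves divided, so the cultures are called here only by their treatment.

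Mast cell granules store active proteases at very high density. The positively charged proteases are held there by heparin and chondroitin sulfate chains attached to serglycin, the core protein encoded by Srgn. Ndst2 encodes the enzyme that removes acetyl groups from the growing heparin chain and adds sulfate in their place, and mice without Ndst2 are known to lack proper mast cell heparin and to store little of several granule proteases. Carboxypeptidase A3, the chymases and the tryptases are the main stored proteases, while Mcpt8 is best known from basophils and Gzmb, granzyme B, from cytotoxic lymphocytes, although mast cells can make it too.

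The stretch of Srgn that carries the chains is printed because it is the attachment site itself: a run of serine and glycine codons, codons 90 to 109 of 152 in the GENCODE M21 transcript ENSMUST00000160987.7 (chromosome 10), with 10 serine-glycine pairs in 60 bases. Capitals mark the serine codons, to which the chains are joined in the protein.
Srgn serine-glycine run: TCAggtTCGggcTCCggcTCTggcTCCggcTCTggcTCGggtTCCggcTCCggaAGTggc
Every serine of the run is followed by a glycine, and 5 different serine codons occur in it.

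The 250 bases before the annotated start of the 3 genes that passed the test are printed next, 5′ to 3′ on the strand of the gene. They come from RefSeq on GRCm38.p6, and capitals mark each GATAA and TATAAA, or TTATC and TTTATA where the letters lie on the other strand. The GATAA letters are those read by GATA factors, and TATAAA is the core promoter element that carries its name. All 3 genes lie on the minus strand, Cpa3 at chr3:20242182-20242431, Srgn at chr10:62527446-62527695 (the first of 2 listed starts) and Ndst2 at chr14:20734563-20734812.
Cpa3: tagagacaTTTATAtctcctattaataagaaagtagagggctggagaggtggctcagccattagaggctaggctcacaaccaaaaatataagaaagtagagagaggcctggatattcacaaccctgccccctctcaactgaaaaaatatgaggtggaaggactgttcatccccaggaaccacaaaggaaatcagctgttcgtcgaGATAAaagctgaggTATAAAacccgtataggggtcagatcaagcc
Srgn: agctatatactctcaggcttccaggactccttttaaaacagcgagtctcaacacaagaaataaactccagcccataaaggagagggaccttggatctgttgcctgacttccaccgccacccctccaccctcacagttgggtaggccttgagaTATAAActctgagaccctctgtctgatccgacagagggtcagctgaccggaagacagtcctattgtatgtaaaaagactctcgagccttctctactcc
Ndst2: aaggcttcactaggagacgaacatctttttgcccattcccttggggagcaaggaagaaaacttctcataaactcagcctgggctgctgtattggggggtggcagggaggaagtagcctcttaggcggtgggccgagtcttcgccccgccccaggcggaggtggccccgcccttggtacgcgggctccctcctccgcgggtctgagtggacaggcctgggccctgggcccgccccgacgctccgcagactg
The Cpa3 window holds GATAA beginning 45 bases before the start and TATAAA beginning 31 bases before it, with a TTTATA at 242. The printed Srgn window holds TATAAA at 98 bases before the start and no GATAA on either strand. The window before the second listed Srgn start, which is not printed, holds no TATAAA and no GATAA on either strand. The Ndst2 window holds neither. Over all 32851 promoter windows of this length, 22.6% hold GATAA and 12.4% hold TATAAA on either strand, so each match is a description of letters and not of a bound site.

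Levels are compared between genes as normalized read counts per kilobase of exon, with exon lengths from GENCODE M21. In DMSO, Cpa3 stood highest of the 10 at 4802 per kilobase, and 105 of 18934 genes with a length lay above it. Srgn followed at 1951 per kilobase and Ndst2 at 1468. Gzmb stood at 572 and Mcpt8 at 145. Cma1 and Mcpt2 lay far lower and next to each other, at 25.9 and 23.5 per kilobase, and their libraries overlapped, with 21.9 to 33.6 for Cma1 and 20.1 to 25.5 for Mcpt2. Srgn and Ndst2 overlapped too, since the third DMSO library had 1498 per kilobase of Srgn and the DMSO libraries had 1333 to 1641 per kilobase of Ndst2. Mcpt1, Tpsab1 and Tpsb2 were at or below 2.09 per kilobase. In C89 the order of the group means of Cpa3, Srgn, Ndst2, Gzmb and Mcpt8 was unchanged, at 13776, 2562, 1009, 299 and 129 per kilobase, and none of these neighbours overlapped between C89 libraries.

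**Figure D1:**
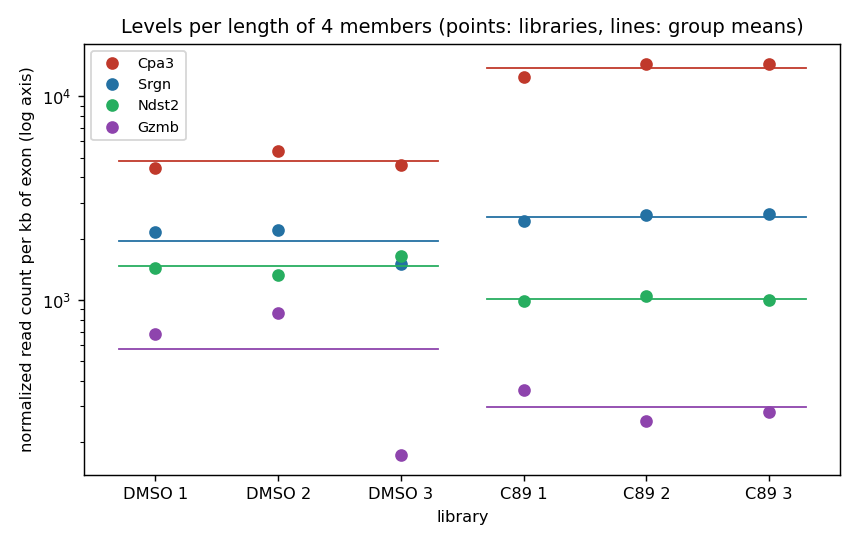
Normalized read counts per kilobase of exon (log axis) of Cpa3, Srgn, Ndst2 and Gzmb in each of the 6 libraries, with points for libraries and lines for group means. Cpa3 lies above the other 3 in every library, Srgn and Ndst2 cross in the third DMSO library, and Gzmb of that library lies below its other DMSO libraries.

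The comparison of C89 with DMSO was read from a limma fit over 18954 genes, in which 26.1% passed the threshold of an adjusted p under 0.05 (12.5% higher in C89 and 13.6% lower). Of the 10 granule genes 9 were tested and 3 passed, Cpa3 and Srgn higher and Ndst2 lower, a share close to that of all genes. The median log2 fold change over the 9 tested was 0.41, beside -0.03 over all tested genes. On the deposited scaling, groups did not overlap for 6 of the 9, with 5 higher and 1 lower. Of all tested genes 40.9% had groups apart (19.9% higher and 21.0% lower). As reads over the total of each library, the groups of Srgn, Cma1 and Tpsab1 overlapped, and Mcpt8 was lower in every C89 library. On that scale Cpa3 and Mcpt2 stayed apart and higher, and Ndst2 apart and lower. With scaling by total reads in place of the deposited scaling, 1514 genes were higher and 4100 lower in place of 2365 and 2581, (7.99% and 21.6% of those tested), and the median log2 fold change of genes averaging 50 or more normalized counts moved from -0.02 to -0.17. Since the libraries are bulk RNA, fewer cells of a type and less RNA per cell cannot be told apart in any of these values.

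**Figure D2:**
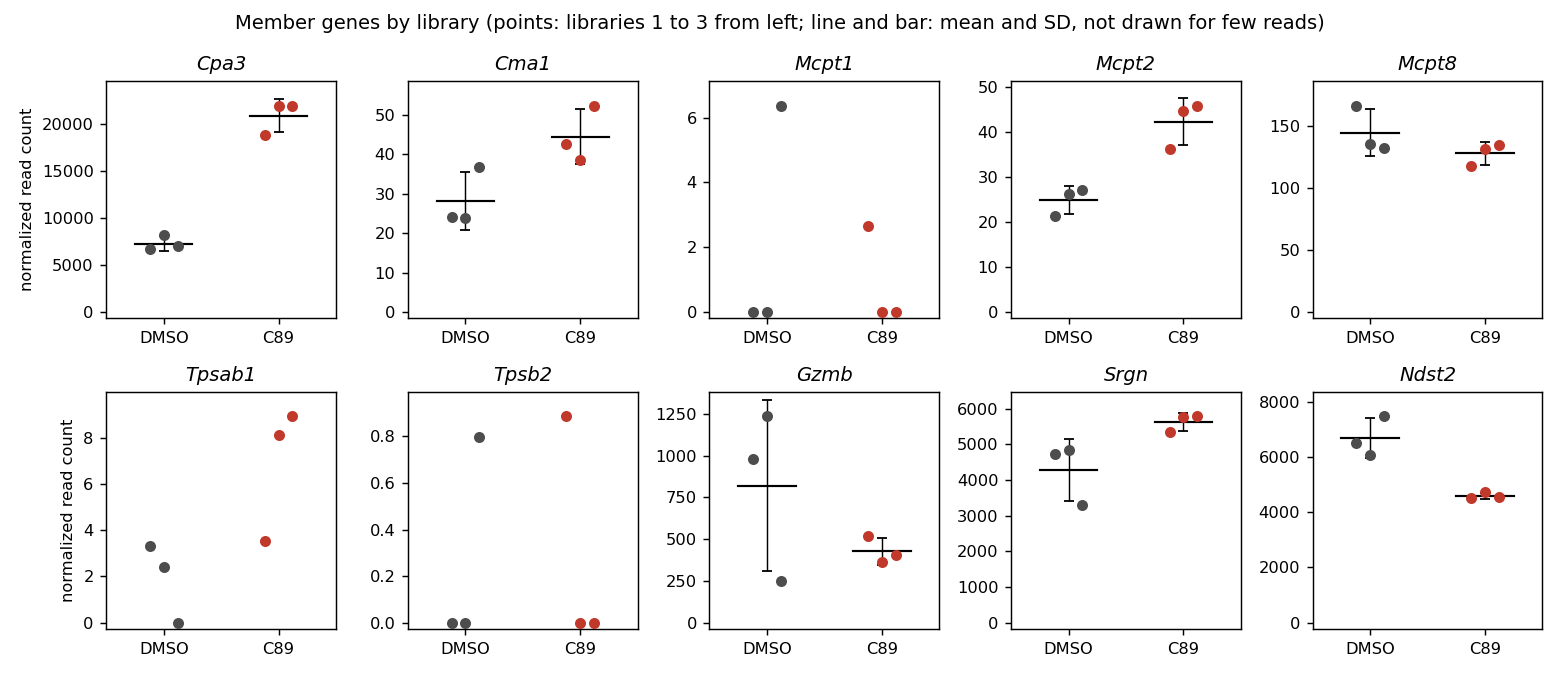
Normalized read count of each member gene in each library, DMSO on the left and C89 on the right of every panel, each panel on its own linear axis from 0, with the mean and SD drawn for genes that are not held to few reads. Cpa3 runs from 6710 to 8159 in DMSO and from 18829 to 21941 in C89, while the Gzmb groups overlap.

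Cpa3 (ENSMUSG00000001865), which encodes carboxypeptidase A3, the enzyme that trims amino acids from the carboxyl ends of peptides, was the most abundant and the most changed of the granule genes with more than a few reads. It had 6710, 8159 and 6985 normalized counts in the DMSO libraries and 18829, 21926 and 21941 in the C89 libraries. Every C89 library was far above every DMSO library, and the highest DMSO value was below the lowest C89 value. Means were 7285 ± 769.5 in DMSO and 20899 ± 1792 in C89 (SD, n = 3 each), a ratio of 2.87, with a log2 fold change of 1.52 (SE 0.10, 95% interval 1.30 to 1.74, limma adjusted p = 7.34e-06).

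Ranked by reads among all genes of its library, Cpa3 stood at places 276, 208 and 262 in DMSO and at 77, 62 and 62 in C89. In reads per 1000000 reads of its library it took 462 to 574 in DMSO and 1185 to 1388 in C89. The call was kept under each of 15 alternative settings, with log2 fold changes from 1.37, with total reads as the scaling, to 1.61, without the second DMSO library. In the authors' deposited table Cpa3 had a log2 fold change of 1.48 and an adjusted p of 4.42e-46. The gene lies at chr3:20215620-20242181 on GRCm38, and none of its 50-base windows occurred in a transcript of another gene.

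The chymase family, serine proteases that cut after aromatic residues or have diverged from that preference, lay together with Gzmb on chromosome 14 and was read at low level. Mcpt8 (ENSMUSG00000022157), a basophil protease of this family, had 167, 135 and 133 normalized counts in DMSO and 118, 132 and 135 in C89. The groups overlapped, and the first DMSO library was the highest. Means were 145 ± 18.8 and 128 ± 9.22 (SD, n = 3 each), with a log2 fold change of -0.17 (95% interval -0.51 to 0.17, limma adjusted p = 0.467), an interval that holds no change and also a fall of 0.51.

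Mcpt2 (ENSMUSG00000022226), a chymase family protease of mucosal mast cells in the mouse, had 21.3, 26.3 and 27.1 normalized counts in DMSO and 36.3, 44.7 and 45.9 in C89. All C89 libraries were above all DMSO libraries, on 32, 33 and 34 reads in DMSO and 41, 22 and 36 in C89. The log2 fold change was 0.74 (95% interval 0.17 to 1.31), and its limma adjusted p of 0.0564 missed the threshold. With genes of a mean under 10 left out of the fit, the limma adjusted p was 0.0394, the only one of 15 alternatives in which Mcpt2 passed.

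Cma1 (ENSMUSG00000022225), which encodes the chymase of connective tissue mast cells, had 24.0, 23.9 and 36.6 normalized counts in DMSO and 42.5, 38.6 and 52.2 in C89. The groups were apart, but the third DMSO library came within 2 normalized counts of the second C89 library. The log2 fold change was 0.66 (95% interval 0.06 to 1.26, limma adjusted p = 0.102), and none of 15 alternatives passed. Of the 1025 windows of 50 bases in its transcript, 56 (5.46%) also occur in the pseudogene Gm48934, which had 24.0 ± 9.54 normalized counts in DMSO and 40.0 ± 4.77 in C89 (SD, n = 3 each). How reads shared between gene and pseudogene had been assigned is not given, so the Cma1 values are uncertain.

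The members with few reads were Mcpt1, Tpsab1 and Tpsb2, each with a mean under 10 normalized counts. Tpsab1 (ENSMUSG00000024173), a tryptase gene, had 5, 3 and 0 reads in the DMSO libraries and 4, 4 and 7 in the C89 libraries, or 8 and 15 reads per group in 57439653 and 38189999 reads. After scaling the groups were apart, the log2 fold change was 1.60 with a 95% interval from 0.12 to 3.08, and the limma adjusted p was 0.106. Mcpt1 (ENSMUSG00000022227), the other mucosal mast cell chymase, had 0, 0 and 8 reads in DMSO and 3, 0 and 0 in C89. Its reads thus came from 1 library in each group, its 95% interval ran from -2.41 to 1.74 (limma adjusted p = 0.834), and its sign turned without the third DMSO library. Tpsb2 (ENSMUSG00000033825), the second tryptase gene, had 1 read in the third DMSO library and 1 in the first C89 library and was not tested. Both groups of Tpsb2 lay under the 3 reads that a count of 0 allows, so no fold was taken. The coding sequences of Mcpt1 and Mcpt2 are 81.24% identical over 741 aligned positions, with gaps counted as differences. Those of Tpsab1 and Tpsb2 are 67.81% identical over 932 aligned positions. The annotated tryptase coding sequences used are 930 and 828 bases long, and this length difference lowers their identity. None of these 4 transcripts shared a 50-base window with another gene.

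Gzmb (ENSMUSG00000015437), the gene of the serine protease granzyme B, had 980, 1235 and 248 normalized counts in DMSO and 520, 364 and 404 in C89. The third DMSO library was below every C89 library, and the other 2 DMSO libraries were above every C89 library. Means were 821 ± 512 and 429 ± 81.1 (SD, n = 3 each), with a log2 fold change of -0.66 (95% interval -1.58 to 0.26, limma adjusted p = 0.284). Without the third DMSO library the log2 fold change was -1.37 with a limma adjusted p of 0.00239. Without the second it was -0.22, and without the first -0.38. In the authors' deposited table Gzmb had a log2 fold change of -0.46 and an adjusted p of 0.298. DESeq2 on recovered reads gave -0.94 (DESeq2 adjusted p = 0.29), so the authors' fold change was not the same estimate.

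DMSO library 3, low in Gzmb, was also low in other genes. Prf1, the pore-forming protein released together with granzymes, had 1376, 1982 and 277 normalized counts in DMSO and 2120, 1384 and 1395 in C89. Unlike Gzmb, Prf1 was as high in C89 as in the first 2 DMSO libraries, with a log2 fold change of 0.81 (95% interval -0.29 to 1.91, limma adjusted p = 0.27). The 9 fibroblast markers summed to 1248, 2400 and 132 normalized counts in DMSO and to between 51.4 and 130 in C89. Of the lymphocyte markers, Ncr1 had no read and Cd3e, Cd3g and Cd8a were at 0 in DMSO libraries 1 and 3, with at most 12.7 normalized counts elsewhere. The part of these differences in the Gzmb values was not tested.

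**Figure D3:**
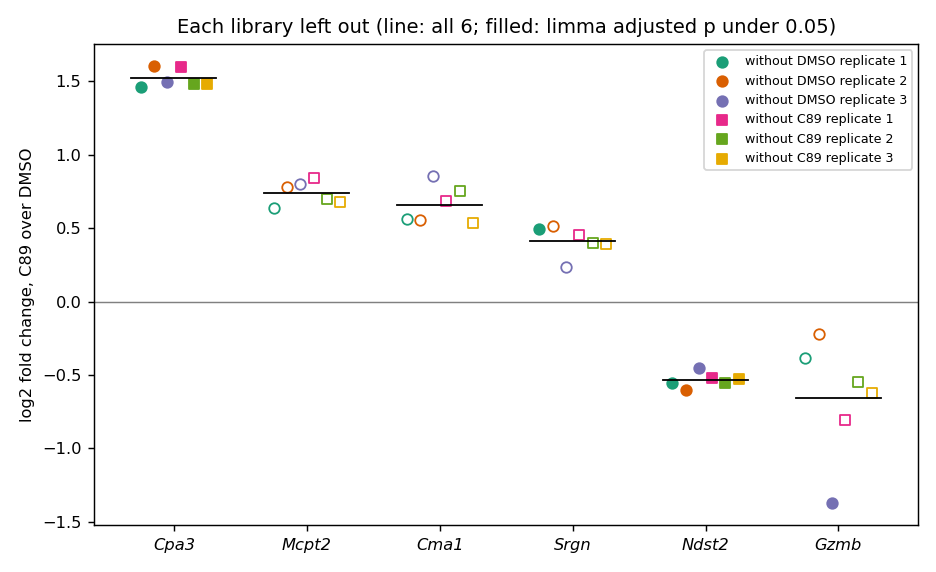
Log2 fold change of C89 over DMSO of 6 members with each library left out in turn, with filled points where the limma adjusted p was under 0.05 and a line at the value from all 6 libraries. Cpa3 and Ndst2 stay filled throughout, Srgn is filled only without the first DMSO library, and Gzmb reaches -1.37 only without the third DMSO library.

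The granule matrix genes were both abundant and moved in opposite directions. Srgn (ENSMUSG00000020077), the serglycin core protein gene, had 4728, 4835 and 3289 normalized counts in DMSO and 5339, 5763 and 5779 in C89. All C89 libraries were above all DMSO libraries, and the third DMSO library was the lowest by a wide margin. Srgn rose from 4284 ± 864 to 5627 ± 249.5 (SD, n = 3 each), a ratio of 1.31 and a log2 fold change of 0.41 (SE 0.13, 95% interval 0.14 to 0.69, limma adjusted p = 0.0314).

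That call for Srgn was narrow and was lost in 8 of 15 alternatives. Without the third DMSO library the log2 fold change was 0.23 (limma adjusted p = 0.0691), and without the second it was 0.51 (limma adjusted p = 0.0919). The limma adjusted p was 0.0629, 0.143 and 0.158 with C89 library 1, 2 or 3 left out. With C89 libraries 2 and 3 averaged the log2 fold change was 0.40 (limma adjusted p = 0.121). The edgeR adjusted p was 0.0527, in a test that called 24.5% of all genes (11.0% higher), and scaling by total reads gave a log2 fold change of 0.27 with a limma adjusted p of 0.136. The log2 fold change was above 0 in every setting, and in the authors' deposited table it was 0.38 with an adjusted p of 0.0139.

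Ndst2 (ENSMUSG00000039308), the heparin N-deacetylase and N-sulfotransferase gene, had 6493, 6060 and 7462 normalized counts in DMSO and 4499, 4727 and 4542 in C89. Every C89 library was below every DMSO library, and the C89 libraries lay close together. Ndst2 fell from 6671 ± 718 to 4589 ± 121 (SD, n = 3 each), a ratio of 0.688 and a log2 fold change of -0.53 (SE 0.09, 95% interval -0.73 to -0.33, limma adjusted p = 0.00133). The call was kept under each of 15 alternatives, with log2 fold changes from -0.68 to -0.45. In the authors' deposited table Ndst2 had a log2 fold change of -0.53 and an adjusted p of 6.37e-07. The gene lies at chr14:20723730-20734562 on GRCm38, outside the chymase cluster of the same chromosome.

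**Figure D4:**
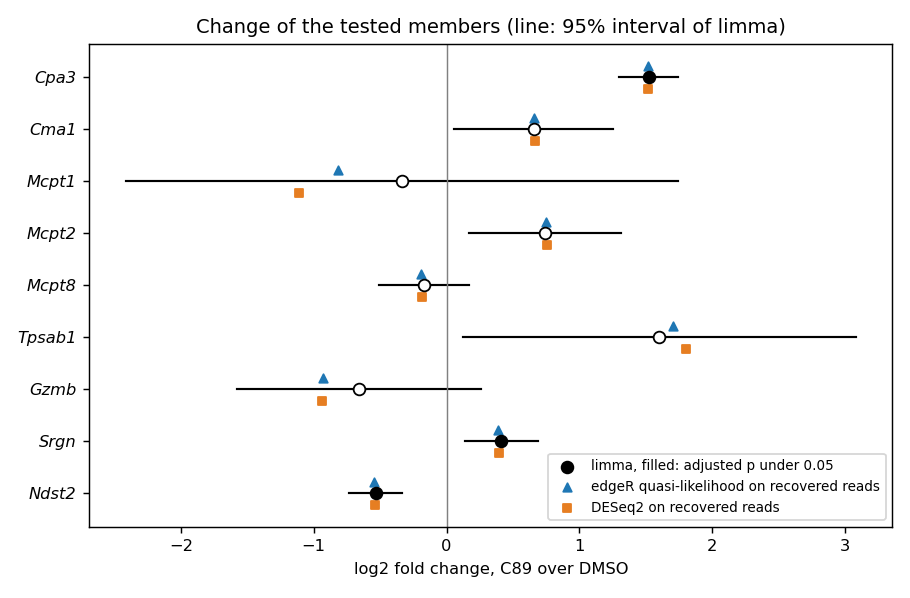
Log2 fold change of C89 over DMSO of the 9 tested members, with points and 95% intervals from limma and with edgeR and DESeq2 estimates on recovered reads as triangles and squares. Filled points (Cpa3, Srgn, Ndst2) had a limma adjusted p under 0.05, and the intervals of Mcpt1 and Tpsab1 are the widest.

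Ratios between genes of the same library do not depend on how libraries were scaled. Per kilobase, Cpa3 over Ndst2 was 3.10, 4.04 and 2.81 in the DMSO libraries and 12.5, 13.9 and 14.5 in the C89 libraries, so that the protease gene gained 4.12-fold on the heparin enzyme gene. Cpa3 over Srgn was 2.05, 2.44 and 3.07 in DMSO and 5.11, 5.51 and 5.50 in C89. Srgn over Ndst2 was 1.51, 1.65 and 0.912 in DMSO and 2.46, 2.52 and 2.63 in C89. The groups were apart for all 3 ratios. These genes were paired because they had passed the test above, so the ratios restate those calls on another scale. An exact test of each ratio between the groups gave p = 0.1, the smallest value it can give with so few libraries. That test could not pass the threshold used here, so no conclusion is drawn from it.

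The other proteases of the chymase, tryptase and granzyme families were nearly silent apart from Ctsg. Of 17 listed genes 8 had no read in any library and 4 were tested, of which 1 passed. That share was close to the 26.1% of all tested genes that passed. Ctsg, cathepsin G, a serine protease that sits in the same cluster as the chymases, had 3270, 3132 and 2777 normalized counts in DMSO and 3792, 4010 and 4051 in C89. All C89 libraries were above all DMSO libraries, and Ctsg rose with a log2 fold change of 0.37 (SE 0.09, limma adjusted p = 0.00784). The call on Ctsg was lost with scaling by total reads and without DMSO library 2, C89 library 2 or C89 library 3. The 4 tested genes had a median log2 fold change of -0.50, and its sign came from genes with few reads. Gzma and Gzmc, averaging 1.19 and 1.67 normalized counts, had log2 fold changes of -1.36 and -1.37 and did not pass. Gzmm, averaging 13.6, had a log2 fold change of 0.67 and did not pass either (limma adjusted p = 0.267).

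Genes that activate granule proteases or inhibit them changed in both directions: 8 of 14 tested passed (57.1%, beside 26.1% of all genes), and the median log2 fold change was 0.27. The 6 that rose were Serpina3g, Serpinb1a, Serpinb9, Cst7, Ctsc and Serpinb6a, and the 2 that fell were Ctse and Slpi. Ctsc encodes the dipeptidyl peptidase that activates granule serine proteases by removing their propeptides. Ctsc rose from 6316 ± 1414 to 8859 ± 732 (log2 fold change 0.51, limma adjusted p = 0.0171). Serpinb9, a gene of the serpin family whose human counterpart inhibits granzyme B, rose from 271.5 ± 49.7 to 470.8 ± 56.0 (log2 fold change 0.80, limma adjusted p = 0.0018). Serpinb1a, an inhibitor of neutrophil elastase, cathepsin G and chymase, rose from 13751 ± 4357 to 24005 ± 167, and Serpina3g rose from 8349 ± 3303 to 18191 ± 892 (SD, n = 3 each).

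Cst7, the cystatin that acts on cathepsin C and other cysteine proteases, rose with a log2 fold change of 0.56, and Serpinb6a, another serpin gene, with one of 0.34. Ctse, an aspartic protease known to take part in processing carboxypeptidase A3 in mouse mast cells, fell from 1177 ± 101 to 717.5 ± 57.9 (log2 fold change -0.71, limma adjusted p = 0.000408). Slpi, a secreted inhibitor of leukocyte serine proteases, fell with a log2 fold change of -1.94 on 115, 159 and 17.5 normalized counts in DMSO and 16.3 to 17.8 in C89, where the third DMSO library was like C89. Ctsb and Cst3 did not pass, at log2 fold changes of 0.14 and 0.20. Summed over the 14 genes, the third DMSO library had 28046 normalized counts where the other DMSO libraries had 47263 and 44190 and C89 libraries had 63834 to 65741. With DMSO library 2 left out, 1 of these genes was higher and 1 lower, and with C89 library 3 left out, 2 were higher and 1 lower. The number of lower genes was also 1 with DMSO library 1, C89 library 1 or C89 library 2 left out, and 3 with DMSO library 3 left out.

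The genes that build and sulfate the chains on serglycin moved in both directions. Of 30 listed genes 28 were tested, and 6 rose and 5 fell (39.3% called, beside 26.1% of all genes, and a median log2 fold change of -0.16). Papss2, which makes the sulfate donor, rose from 671 ± 197 to 1540 ± 367 (log2 fold change 1.22, limma adjusted p = 0.00104). Slc26a2, the sulfate transporter of the cell surface, fell from 605 ± 112 normalized counts in DMSO with a log2 fold change of -0.61, and Slc35b2, which carries the sulfate donor into the Golgi, fell from 1109 ± 63.8 to 857 ± 90.3 (SD, n = 3 each). Of the genes that build the linkage region joining every chain to serine, B3gat3 rose with a log2 fold change of 0.49 and B3galt6 fell with -0.63. Extl2, whose enzyme acts on that region and does not build it, fell with -0.54.

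Of the genes for chondroitin sulfate, the polymerization gene Chsy1 rose by a log2 fold change of 0.46 and its partner Chpf by 0.32. The chondroitin sulfotransferase gene Chst11 rose with 0.44, and its relative Chst12 fell with -0.63 (limma adjusted p = 0.00133). Of the heparan and heparin sulfotransferases, Hs6st2 rose with 0.67, on 206 ± 26.1 normalized counts in DMSO, and the far more abundant Hs6st1 had 4610 ± 29.6 in DMSO and 4087 ± 310 in C89 (limma adjusted p = 0.145). Ndst1, the paralogue of Ndst2, had 1775 ± 168 normalized counts in DMSO and 1785 ± 268 in C89 (SD, n = 3 each), with a limma adjusted p of 0.991. The xylose kinase gene Fam20b and the polymerase gene Ext2 did not pass either, at log2 fold changes of 0.10 and 0.01. With scaling by total reads 4 genes were higher and 10 lower, without the second DMSO library 2 were higher and 3 lower, and without the second C89 library 3 were higher and 5 lower.

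Markers of the cell types that could carry granule genes moved as follows. Of 9 mast cell identity markers tested 6 rose, where 12.5% of all tested genes did, with a median log2 fold change of 0.56, and the 12 listed summed to between 54592 and 64623 normalized counts in DMSO and between 81215 and 97192 in C89. Hdc, the enzyme that makes histamine, rose from 80.7 ± 35.9 to 349 ± 94.4 (log2 fold change 2.18, limma adjusted p = 0.000313), Cd63, a granule membrane protein gene, with a log2 fold change of 0.72, and Fcer1g, the gamma chain of Fc receptors, with 0.56. Kit, Gata2 and Il1rl1 rose too, by 0.47, 0.56 and 0.93 on the log2 scale, and Mitf and Slc18a2 did not pass, at -0.17 and -0.19. With scaling by total reads 5 markers of this list were higher and 2 lower. Thus 6 of the 12 listed rose, as Cpa3 and Srgn did, Slc18a2 was lower in every C89 library than in any DMSO library, and the part of these markers in the values of the granule genes was not tested.

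Of the 7 basophil markers, which include Mcpt8, 3 were tested and 2 passed (66.7%, beside 26.1% of all tested genes). Those 2 were Cd200r3 and Il3ra, with log2 fold changes of 1.29 and 0.68. The 7 basophil markers summed to between 306 and 428 normalized counts in DMSO and between 518 and 648 in C89. Prss34 had 2.03 normalized counts in a single library, and with C89 library 3 left out 1 passed. Of 8 cytotoxic lymphocyte markers tested 1 passed (12.5%, beside 26.1% of all tested genes). It was Tbx21, with 5.18 ± 2.78 normalized counts in DMSO and no read in C89. Its call was lost with DESeq2 and with genes averaging under 10 left out. It was also lost with DMSO library 2, DMSO library 3 or C89 library 3 left out. These markers summed to between 287 and 2032 normalized counts in DMSO and between 1396 and 2136 in C89, nearly all of it Prf1. Of 6 macrophage markers tested 1 passed (16.7%, beside 26.1% of all tested genes). It was Adgre1, which rose from 917 ± 117 to 2173 ± 138 (log2 fold change 1.25, limma adjusted p = 1.24e-05). C1qb had no read and Csf1r at most 2.55 normalized counts. Cd68, a marker of lysosome-rich cells, had a log2 fold change of 0.41 (limma adjusted p = 0.0891). The 9 macrophage markers summed to between 1803 and 2712 in DMSO and between 3721 and 3988 in C89, nearly all of it Adgre1 and Cd68. The other 4 tested did not pass: Lyz2 and Mrc1 had log2 fold changes of -1.01 and -0.17, and Cd14 and C1qa had at most 4.67 and 7.17 normalized counts in DMSO and no read in C89. The median log2 fold change of the 6 tested was -0.59.

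Of 7 fibroblast markers tested 3 fell (42.9%, where 13.6% of all tested genes did). These were Fn1, Pdgfra and Col1a2, with log2 fold changes of -4.65, -2.04 and -2.90. Lum and Postn had no read. Without the third DMSO library 6 fibroblast markers passed, and without the second 1 did. The 3 germ cell markers tested, Ddx4, Piwil2 and Ifitm3, had limma adjusted p of 0.933, 0.419 and 0.726, and the 5 listed summed to between 179 and 246 normalized counts in DMSO and between 132 and 194 in C89. The part of these cell types in the values of the granule genes was not tested.

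**Figure D5:**
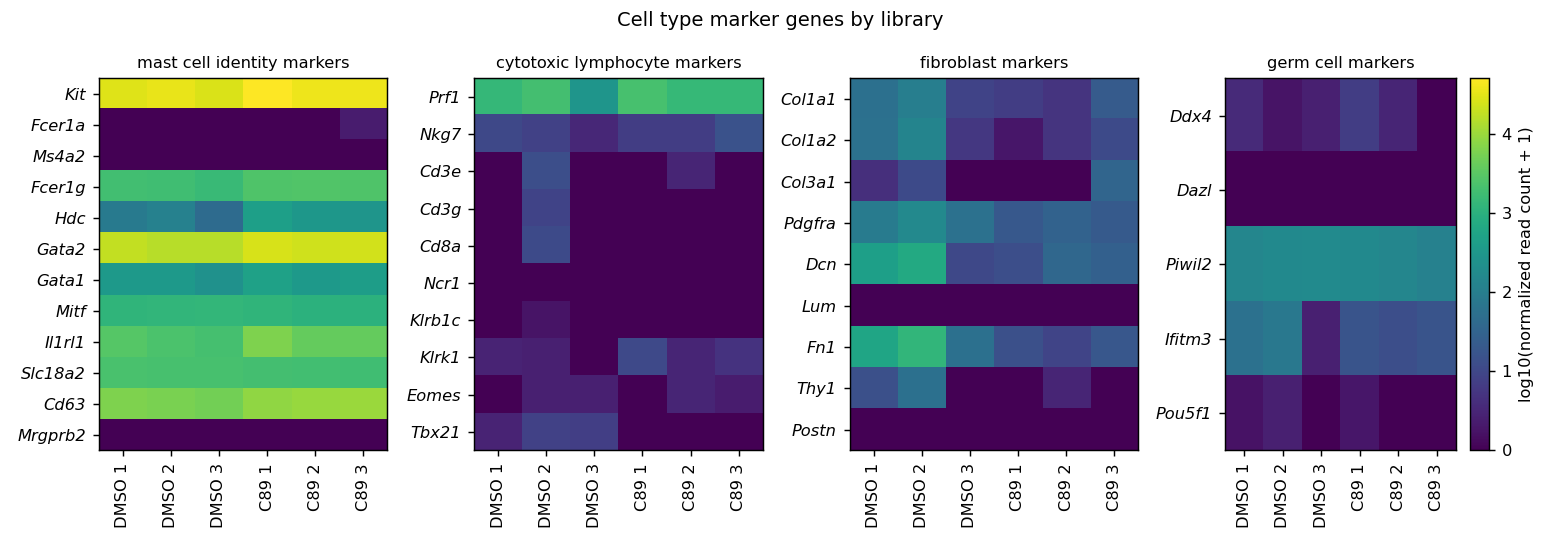
Marker genes of mast cells, cytotoxic lymphocytes, fibroblasts and germ cells in each of the 6 libraries, coloured by log10 of the normalized read count plus 1. Kit and Gata2 are bright in every library, Ms4a2, Mrgprb2 and Dazl are at 0, and the fibroblast markers Dcn and Fn1 are bright in the first 2 DMSO libraries.

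The genes whose profile over the 6 libraries was most like that of a granule gene were sought among 9042 genes averaging 100 or more normalized counts, by the root mean square distance between log2 values centred on each gene's own mean. Nearest to Cpa3 were Avil, P2rx3 and Il4, at distances of 0.098, 0.102 and 0.106. Il4, an interleukin gene, had 418, 447 and 357 normalized counts in DMSO and 1044, 1144 and 1094 in C89. Avil, an actin-binding protein gene, had 4129, 5416 and 4021 in DMSO and 12526, 12230 and 12854 in C89, so that its groups were apart by nearly the same ratio as those of Cpa3. Nearest to Srgn were Gskip, Mvp and Msmo1, at 0.0347, 0.0412 and 0.0502, and all 3 were lowest in the third DMSO library as Srgn was. Nearest to Ndst2 were Plcb3, Thap1 and Daglb, at 0.0345, 0.0367 and 0.0379, and all 3 were highest in the third DMSO library. These distances describe 6 libraries of shared scaling and depth.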

How the data were processed

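Per the labels' protocols, 6 mRNA libraries were sequenced. The submitters' processing notes list HISAT2 and DESeq2. Their versions, the build, the annotation, the counting tool and any use of strand were not given in the sources used here. The authors deposited a signal per library, in which each library's read counts had been divided by its size factor, with their own log2 fold changes and adjusted p-values per the file headers. All 119020 values above 0 were whole reads within 0.01 read (100%), so reads were recovered. Totals were 17826569 to 21763459 in DMSO and 7772060 to 17938295 in C89 libraries, and 1 read was worth 0.667 to 2.03 normalized counts, so few-read genes are least precise in the second C89 library. The floor of 3 reads and the intervals cover counting error or library spread only. One gene was left out for a text cell, and 6 further unnamed columns were not used.

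The log2 of each value plus 1 was fitted with limma 3.58.1 (trend, R 4.3.3, two-sided) for genes averaging 1 or more, Benjamini-Hochberg adjusted over all, threshold 0.05. As alternatives, edgeR 4.0.16 called 4652 genes and DESeq2 1.42.0 called 4529 on recovered reads, beside 4946 with limma. Fold changes on this scale understate low genes. Members under a mean of 10 were set apart. Gene positions and lengths come from GENCODE M21 (GRCm38), which may not be the authors' annotation.

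C89 libraries 2 and 3 differed in 0.686% of genes, against 25.8% to 48.7% for the other pairs within a group. Whether they are 1 sample was not settled by the labels. They were kept as 2 libraries, because their counts still differed by more than sampling noise (chi-square per degree of freedom 1.61), and averaging them was an alternative. The members and lists were chosen with earlier results of these data known. Genes named are the members, up to 3 called genes of lowest p and any averaging 1000 or more in each list, other called genes where a count is small, and the 3 nearest profiles of Cpa3, Srgn and Ndst2.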

Additional observations from a re-analysis of the deposited data

How the results depend on the processing

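The direction and call of Cpa3, Ndst2, Cma1, Mcpt8 and Tpsab1 were the same in every alternative that gave a value, 15 for each and 14 for Tpsab1, which the stricter filter removes. With a library left out, Mcpt1 ran from a log2 fold change of -0.96 to 0.62, and turned sign without DMSO library 3. Of 18954 genes 4946 were called with all libraries, 2303 to 4711 with a library left out and 3297 with C89 libraries 2 and 3 averaged. Of the granule genes 3 were called with all libraries and 2 to 3 with a library left out. The 3 were not always the same: without DMSO library 3, Gzmb was called and Srgn was not. With genes averaging under 10 left out 4 were called, Mcpt2 among them. Of the genes on the protease, inhibitor and chain-synthesis lists 20 were called, and 7 to 19 with a library left out. The samples share only a replicate number: deviations of same-numbered libraries correlated at -0.13, -0.10 and -0.09. The fit with the replicate number as a block called 4092 genes, among them the granule genes Cpa3, Ndst2 and Srgn (Srgn at a limma adjusted p of 0.0395). The cause of these differences was not tested. Depth limits Mcpt1, Tpsab1 and Tpsb2 in every library.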

Other observations

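The stretch of chromosome 14 from Cma1 to Gzmb, at chr14:55941451-56262260 on GRCm38, holds 26 annotated genes, of which 15 are protein-coding. Of these 15, 5 had no read in any library (Gzmd, Gzme, Gzmf, Gzmg and Gzmn) and 5 had a mean of at least 10 normalized counts. The 3 with a mean of at least 100 were Mcpt8, Ctsg and Gzmb. Mcpt4, a chymase of connective tissue mast cells in the mouse, and Cma2 had 0.797 normalized counts each in the second DMSO library and none elsewhere. Protease genes with reads thus lie among silent ones along this cluster.

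Of the 10 granule genes 7 had a RefSeq promoter window. GATAA or TTATC occurs in the windows of Cma1, beginning 194 bases before the start, and of Mcpt1, at 98, beside that of Cpa3. TATAAA occurs at 28 bases before the start of Mcpt1. The Gzmb window holds TGAGTCA, the AP-1 letters on the other strand, at 58 bases before its start, as 4.46% of all windows hold on either strand. It also holds TGTGGT, the letters of RUNX factors, at 93 and 34 bases, as 14% of all windows hold on either strand. CANNTG, the E-box letters with N any base, occurs 2 times in it and in 66.2% of all windows. The RUNX and E-box letters occur together in the Cpa3, Mcpt8 and second Srgn windows too. The Mcpt1 window holds the RUNX letters and no E-box. The Cma1 and first Srgn windows hold an E-box and no RUNX letters, and the Ndst2 window holds neither. These are descriptions of letters and were set against no binding data.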
